A study of Mus musculus with 2 samples.

Results

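Brain-derived neurotrophic factor (Bdnf), its relative Ntf3 (neurotrophin-3) and the receptors Ntrk2, Ntrk3, Ngfr and Sort1 were followed, form by form, in RNA of a synaptosome fraction and of total homogenate from mouse brain. The 6 genes were chosen by name, and every transcript row carrying one of those names was taken: 13 of 30383 rows, and 6 of 23329 genes. Synaptosomes are nerve endings that pinch off and reseal when brain tissue is homogenised, often with a piece of the postsynaptic side attached. The synaptosome library came from C57BL/6, wild-type (WT) whole brain, from the layer collected between 3% and 10% Percoll. The homogenate library came from total homogenate of the same strain, genotype and tissue. Both sample titles also carry the code CT10, which the labels do not explain. Age, sex, treatment and number of animals are not given in the labels used here. The libraries held 13709539 counts for the synaptosome fraction and 15210857 for the homogenate. There was 1 library per fraction, so no difference has a replicate check, and every interval covers counting error only.

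Neurotrophins are secreted growth factors that are made as precursors and cleaved to mature ligands. Each mature ligand binds a Trk receptor tyrosine kinase (Bdnf binds TrkB, encoded by Ntrk2; neurotrophin-3 binds TrkC, encoded by Ntrk3), whereas precursors bind p75 (Ngfr) together with sortilin (Sort1). Ntrk2 and Ntrk3 also give truncated receptors that keep the ligand-binding and membrane-spanning parts and lack the kinase. In brain, truncated TrkB is the main TrkB form of astrocytes, and full-length TrkB is mainly neuronal. Bdnf is transcribed from several promoters, each with its own 5′ exon spliced to one shared coding exon.

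The coding sequence at which the receptor forms part is shown because the choice of form is made there. Each line gives the end of the last shared exon in lower case, then in capitals the start of the coding sequence particular to that form, read from GENCODE M21 transcripts on mm10.
Ntrk2 truncated: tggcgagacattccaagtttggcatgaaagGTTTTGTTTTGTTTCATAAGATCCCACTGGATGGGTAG
Ntrk2 full-length: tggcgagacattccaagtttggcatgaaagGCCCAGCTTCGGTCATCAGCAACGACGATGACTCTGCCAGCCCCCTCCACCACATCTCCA
Ntrk3 truncated: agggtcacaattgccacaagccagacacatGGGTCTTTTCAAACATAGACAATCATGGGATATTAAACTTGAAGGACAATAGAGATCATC
Ntrk3 full-length: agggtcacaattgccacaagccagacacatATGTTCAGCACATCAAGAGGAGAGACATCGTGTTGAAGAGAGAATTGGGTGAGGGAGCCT

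In Ntrk2 (chromosome 13, plus strand, 58806596 to 59129967 in the files) the last shared exon ends at 58878262. The truncated form goes on at 58932023 in 1 further exon, with 35 coding bases before its stop codon, which ends the printed line, and encodes 476 residues. The full-length form skips to 58985802, has 6 further exons and encodes 821 residues. In Ntrk3 (chromosome 7, minus strand, 78192114 to 78577838) the last shared exon ends at 78356027. The truncated form uses 2 further exons and 251 coding bases and encodes 612 residues. The full-length form uses 5 further exons and 890 coding bases and encodes 825 residues.

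The 2 most abundant of the 6 genes, the receptors Ntrk2 and Sort1, differed from the typical gene, each by 2-fold or more toward the synaptosome fraction. Bdnf, Ntf3, Ntrk3 and Ngfr lay between the 2-fold limits. Both Ntrk2 forms were higher, the truncated form by more than the full-length form. The summed Bdnf ratio was small, while single Bdnf forms went in opposite directions.

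Ratios were taken between counts scaled with trimmed mean of M values (TMM), which sets the typical gene near a log2 ratio of 0. The words higher and lower are kept for a difference of 2-fold or more whose exact 95% interval did not include a ratio of 1. By that rule 12.9% of the 14113 genes with a mean of 1 CPM or more (a count relative to the TMM-scaled library size) were higher and 8.96% were lower. All 6 members passed the CPM minimum, 2 of them were higher and 0 lower. The median log2 ratio was 0.48 over the 6 members and -0.01 over all genes tested. With library totals in place of TMM every log2 ratio moved by -0.49, the median of all genes became -0.50, and 641 genes were higher and 3591 lower, against 1815 and 1264 under TMM. A log2 ratio between 0 and 0.49 is therefore below 0 under library totals.

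**Figure D1:**
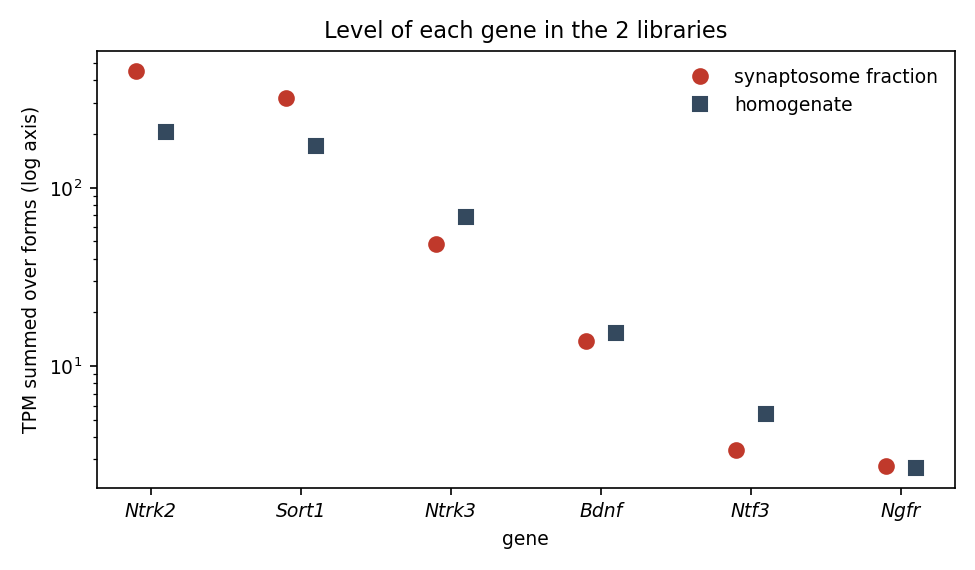
Level of each of the 6 genes in TPM, summed over its forms, on a log axis, in the synaptosome library (circles) and the homogenate library (squares), 1 library each. Ntrk2 and Sort1 are highest in both, and Ntf3 and Ngfr lowest.

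The order of levels in TPM (a level per transcript length, relative to the whole library) was the same in both libraries. Ntrk2 stood at 454 TPM in the synaptosome fraction and 205 TPM in the homogenate, and Sort1 at 320 and 173 TPM. Ntrk3 followed with 48.7 TPM in the synaptosome fraction and 68.3 TPM in the homogenate, then Bdnf with 13.9 and 15.4 TPM. Ntf3 had 3.37 TPM (counting interval 2.18 to 4.97) in the synaptosome fraction and 5.39 TPM (3.90 to 7.26) in the homogenate. Ngfr had 2.76 TPM (2.07 to 3.60) and 2.68 TPM (2.03 to 3.47). In the synaptosome library the intervals of Ntf3 and Ngfr overlapped, so their order there is within counting error. The other neighbours in the order lay apart in both libraries. The receptor outweighed its ligand: the Ntrk2 level was 32.7 times the Bdnf level in the synaptosome fraction and 13.3 times in the homogenate. As log2 ratios of TPM, Ntrk2 stood at 1.15, Sort1 at 0.89, Ngfr at 0.04, Bdnf at -0.15, Ntrk3 at -0.49 and Ntf3 at -0.68, each lower than the same gene's TMM-scaled value.

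Among the ligands, Bdnf, which shapes synapses in response to activity, had 329 counts in the synaptosome fraction and 391 in the homogenate. That is 28.5 and 21.7 TMM-scaled CPM, a log2 ratio of 0.39 (95% interval 0.18 to 0.61), which became -0.10 under library totals and -0.15 with TPM. The gene as a whole was thus near the typical gene, and 67.9% of the genes tested had a lower ratio. Ntf3, the TrkC ligand, had 25 counts in the synaptosome fraction and 43 in the homogenate, a log2 ratio of -0.14 (-0.91 to 0.60). All its counts were placed on 1 of 3 forms (NM_001164035), and the other forms, NM_008742 and NM_001164034, were listed at 0 in both libraries. Those forms have 0 bases of their own within the gene, while NM_001164035 has 120. The authors' second, posterior count column spread the same Ntf3 reads over all 3.

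Bdnf (chromosome 2, plus strand, 109674700 to 109727043) was listed in 4 forms, which share the coding exon and differ in the 5′ exon. They are called forms 1 to 4 here in genomic order, with first exons that begin at 109674700 (NM_007540), 109675897 (NM_001048139), 109692436 (NM_001048141) and 109693563 (NM_001048142). Form 1 had an estimated 20.5 counts in the synaptosome fraction and 56.1 in the homogenate. Form 2 had 106 and 52.7 counts. Form 3 had 35.8 and 157 counts, and form 4 had 167 and 125 counts. Per length, form 4 stood at 7.17 TPM in the synaptosome fraction and 4.98 TPM in the homogenate, and form 3 at 1.54 and 6.30 TPM. Forms 2 and 4 thus had more counts in the synaptosome library, although it was the smaller one, and forms 1 and 3 had fewer.

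As TMM-scaled log2 ratios, form 2 stood at 1.64 (1.15 to 2.15) and form 4 at 1.06 (0.72 to 1.41), both at least 2-fold higher. Form 3 stood at -1.48 (-2.05 to -0.95), at least 2-fold lower, and form 1 at -0.77 (-1.57 to -0.03), within 2-fold. Over the 20853 transcripts whose mean reached 0.1 CPM, 15.5% were higher by this rule and 13.4% lower. Of the 11 member rows above that minimum, 5 were higher and 1 was lower: both Ntrk2 forms, Sort1 and Bdnf forms 2 and 4 were higher, and Bdnf form 3 was lower. With the posterior counts form 4 moved to 0.82, within 2-fold, and form 3 to -1.06. Under library totals form 4 was at 0.57 and form 1 at -1.27, so that form 4 was no longer counted as higher and form 1 was counted as lower.

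**Figure D2:**
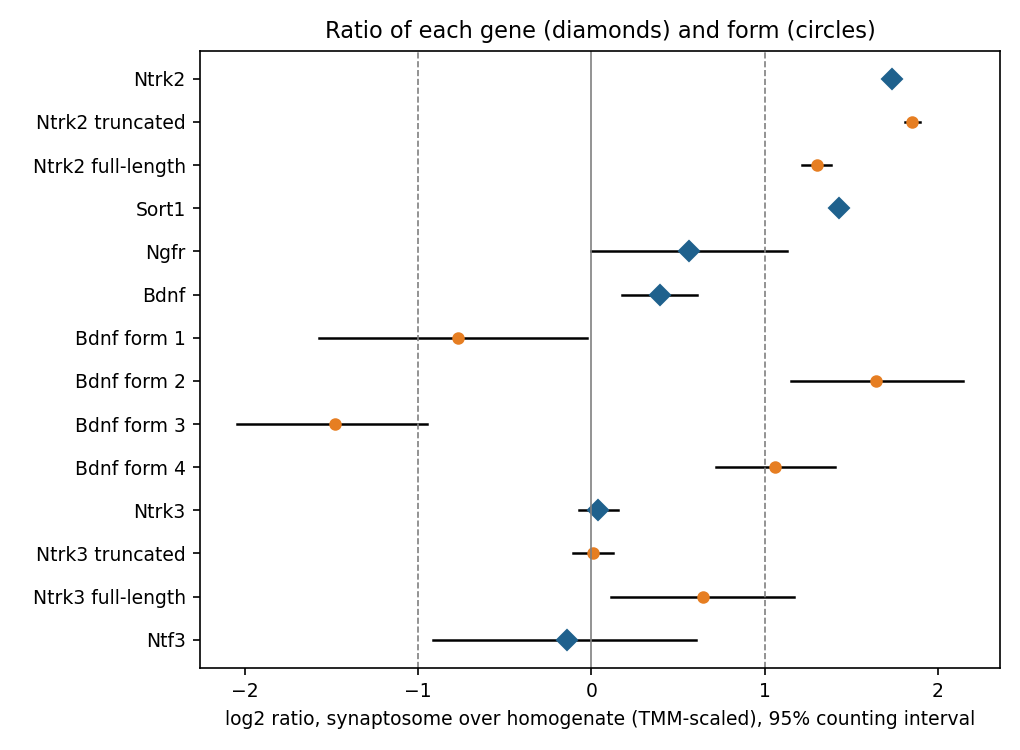
Log2 ratio, synaptosome over homogenate, of each gene (diamonds) and of the forms of Ntrk2, Bdnf and Ntrk3 (circles), with 95% counting intervals; dashed lines mark 2-fold. Both Ntrk2 forms and Sort1 lie past 2-fold, and Bdnf forms 2 and 4 lie on the other side of 0 from forms 1 and 3.

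The share of a form within its gene does not depend on how libraries are scaled. Form 3 made up 10.9% (exact interval 7.76 to 14.8) of Bdnf counts in the synaptosome fraction and 40.2% (35.3 to 45.2) in the homogenate. Form 4 made up 50.6% (45.1 to 56.1) and 32.0% (27.4 to 36.8). Form 2 made up 32.1% (27.1 to 37.5) in the synaptosome fraction and 13.6% (10.3 to 17.4) in the homogenate, and form 1 made up 6.36% (3.98 to 9.56) and 14.3% (11.0 to 18.2). Compared in pairs, forms 2 and 4 differed from each other by log2 odds of 0.58 (-0.00 to 1.16), and forms 1 and 3 by 0.72 (-0.17 to 1.60), intervals that include 0. Form 2 against form 3 differed most, by 3.10 (2.40 to 3.81). For each of the 4 forms, the interval in the synaptosome library and that in the homogenate library did not overlap. Within the synaptosome library form 4 had the largest share, with an interval apart from the others. Within the homogenate library form 3 had the largest share, but its interval overlapped that of form 4.

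Set against the rest of the gene, the odds of form 3 were 5.42-fold lower in the synaptosome fraction (interval 3.64 to 8.07) and those of form 1 were 2.42-fold lower (1.44 to 4.08). The odds of form 2 were 3.00-fold higher (2.07 to 4.34) and those of form 4 were 2.18-fold higher (1.61 to 2.94). All 4 passed 2-fold, but so did 50.9% of the 6430 transcripts tested in this way, and 50.4% of those from genes with 4 forms. Of 100 genes with 4 forms that could all be tested, 10, Bdnf among them, had all 4 past 2-fold. In 8 of the 100 genes, 2 forms moved each way. With posterior counts the odds of forms 1 and 4 moved to log2 -0.98 and 0.69, inside 2-fold, while forms 2 and 3 stayed past it at 1.52 and -1.89.

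The part of each Bdnf form that reads can tell from the others is short. The first exons of forms 1, 2, 3 and 4 hold 640, 499, 339 and 347 bases, which is 14.9%, 12.0%, 8.47% and 8.66% of their length. The other bases are shared by all 4, so most Bdnf reads had to be divided between forms by the authors' estimate. The error of that division is not in the intervals. The kit kept strand, but whether strand was used in counting is not stated, so reads from an antisense transcript over the Bdnf locus could not be told apart from Bdnf reads.

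The promoters just before forms 1 and 3, the pair whose share was smaller in the synaptosome library, are shown for their sequence, from RefSeq windows on GRCm38.p6, and end 1 base before the first exon. Forms 2 and 4 had no window in that table. Capitals mark TGACG or its complement CGTCA, a half-site bound by CREB, a transcription factor through which activity induces Bdnf.
Bdnf form 1, chr2:109674450-109674699: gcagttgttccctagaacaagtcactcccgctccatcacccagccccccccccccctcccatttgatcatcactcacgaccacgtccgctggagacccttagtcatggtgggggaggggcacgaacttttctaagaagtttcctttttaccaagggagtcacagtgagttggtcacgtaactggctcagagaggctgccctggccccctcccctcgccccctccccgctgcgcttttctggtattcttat
Bdnf form 3, chr2:109692186-109692435: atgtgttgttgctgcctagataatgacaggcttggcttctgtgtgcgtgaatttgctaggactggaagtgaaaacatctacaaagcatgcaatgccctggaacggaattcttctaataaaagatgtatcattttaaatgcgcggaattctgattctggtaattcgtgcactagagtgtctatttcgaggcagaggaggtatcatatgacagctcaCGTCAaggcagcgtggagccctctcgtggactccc

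The form 3 window held 1 such half-site, which begins 35 bases before the start, and the form 1 window held 0. Only exact matches were searched, so variant sites would be missed, and 0 matches does not mean that CREB has no site there. On either strand 17.8% of 32851 promoter windows of 250 bases held it. TATAAA and CCAAT, also searched on both strands, had 0 matches in these windows and were present in 12.4% and 33.8% of all windows.

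Of the receptors, Ntrk2 (TrkB) had 17035 counts in the synaptosome fraction and 7997 in the homogenate. Its level was 1474 TMM-scaled CPM in the synaptosome fraction and 443 in the homogenate, a ratio of 3.33 (3.24 to 3.42) and a log2 ratio of 1.73, which was 1.24 under library totals. Of all genes tested, 97.4% had a lower ratio. The truncated form had 13914 counts in the synaptosome fraction and 6017 in the homogenate and was 3.61-fold higher (3.50 to 3.72). The full-length form had 3121 and 1980 counts and was 2.46-fold higher (2.33 to 2.61). Under library totals the full-length form had a log2 ratio of 0.81, within 2-fold, and the truncated form one of 1.36.

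Truncated Ntrk2 was the larger form in both libraries. It made up 81.7% of Ntrk2 counts in the synaptosome fraction (81.1 to 82.3) and 75.2% in the homogenate (74.3 to 76.2). In TPM, truncated Ntrk2 was 2.91 times the full-length form in the synaptosome fraction, at 338 and 116 TPM. In the homogenate it was 1.98 times, at 136 and 68.6 TPM. These shares and ratios depend on where the gene models end, which is given with Ntrk3 below. The truncated form accounted for 80.9% of the difference in summed Ntrk2 TPM between the libraries. The odds of truncated over full-length Ntrk2 in the synaptosome fraction were 1.47 times those in the homogenate (1.38 to 1.56), below the 2-fold rule. Among 1569 other genes with 2 listed forms, 71.6% differed by at least as much, so a change of this size was common.

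**Figure D3:**
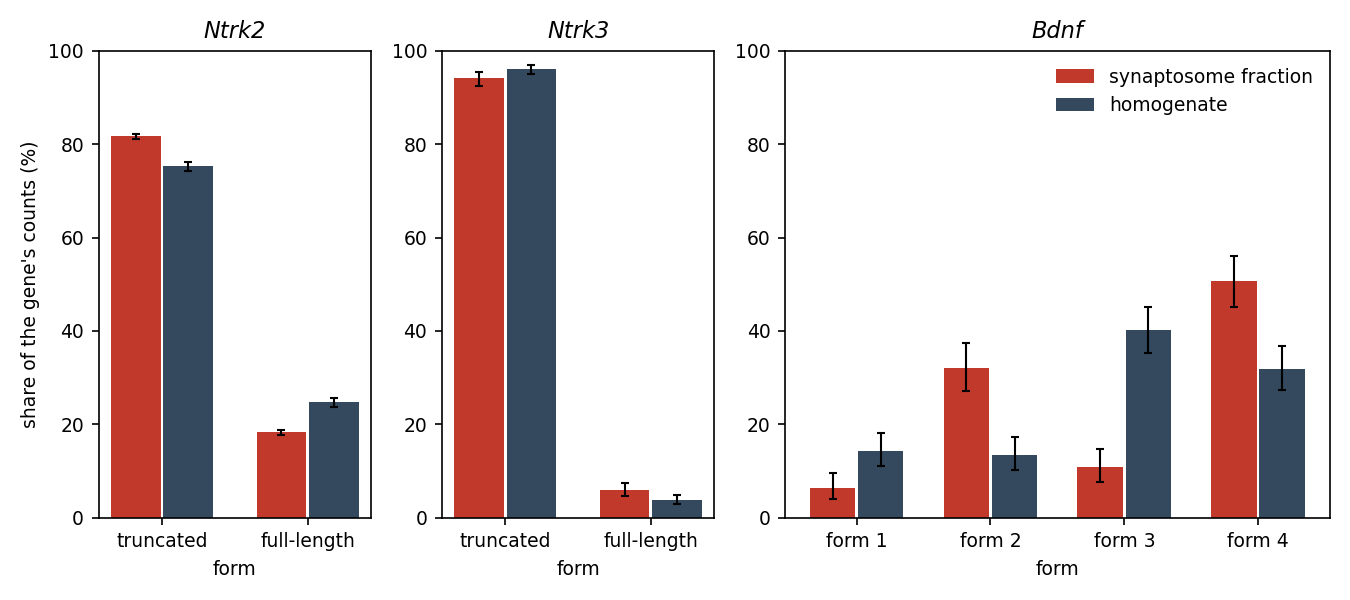
Share of each form in the estimated counts of its gene, in percent, in the synaptosome library (left bar of each pair) and the homogenate library (right bar), with exact 95% counting intervals. Truncated Ntrk2 takes 81.7% and 75.2%, and Bdnf form 3 takes 10.9% and 40.2%.

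Most astrocyte markers were higher, as was Ntrk2, where 12.9% of all genes tested were higher and 8.96% lower. Of 12 astrocyte markers, 10 were higher by 2-fold or more and 0 lower; their log2 ratios were 0.82 to 2.47 (median 1.55), and their summed level was 10328 TPM in the synaptosome fraction and 3675 TPM in the homogenate, and none was at 0. Under library totals 7 of the 12 were higher and 0 lower. The log2 ratio of truncated Ntrk2, 1.85, and that of full-length Ntrk2, 1.2995, both lay inside that range. Both also lay inside the ranges of the microglial (0.50 to 2.17) and oligodendrocyte (-0.16 to 2.41) markers, so this is not particular to astrocyte markers. Full-length Ntrk2 also lay inside the neuronal (-1.42 to 1.85) and oligodendrocyte precursor (-0.72 to 1.63) ranges. Truncated Ntrk2, at 1.8524, was just past the neuronal maximum of 1.8505 and above the precursor range. Slc1a2, the glutamate transporter of astrocytes, had a log2 ratio of 2.12. Of 7 neuronal markers, 1 was higher and 3 were lower, with log2 ratios of -1.42 for Snap25, a membrane fusion protein, to 1.85 for the kinase gene Camk2a and a summed level of 6385 TPM in the synaptosome fraction and 7531 TPM in the homogenate. The part of astrocyte or neuronal RNA in the Ntrk2 values was not tested. In bulk RNA, a different amount of material from a cell type and a different RNA level within that material cannot be told apart.

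The other marker lists are given beside the members, to be read against the 12.9% of all genes tested that were higher and the 8.96% that were lower. Microglial markers were higher in 3 of 6 cases (log2 ratios 0.50 to 2.17, summed 509 TPM in the synaptosome fraction and 308 TPM in the homogenate), and oligodendrocyte markers in 2 of 6 (-0.16 to 2.41, summed 21653 and 9284 TPM). Of 4 oligodendrocyte precursor markers 2 were higher. Endothelial markers were lower in 5 of 5 cases (-3.90 to -2.73), and 2 of 4 mural and fibroblast markers and 1 of 3 choroid plexus markers were lower. All 4 nuclear RNAs were lower (-3.29 to -2.08). Under library totals 1 microglial marker was higher, 1 oligodendrocyte precursor marker was higher and 1 lower, and 2 choroid plexus markers were lower. Of all 14113 genes tested, 641 were then higher and 3591 lower. No listed marker was at 0 in both libraries.

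Ntrk3 (TrkC) had 1064 counts in the synaptosome fraction and 1616 in the homogenate, which is 92.1 and 89.6 TMM-scaled CPM. Its log2 ratio was 0.04 (-0.07 to 0.15), at the typical gene, and -0.45 under library totals. Nearly all of it was the truncated form, with 1001 counts in the synaptosome fraction and 1553 in the homogenate and a log2 ratio of 0.01 (-0.11 to 0.12). The full-length form had 62.6 and 62.7 counts and a log2 ratio of 0.64 (0.12 to 1.17). In TPM, the truncated form was 12.3 times the full-length one in the synaptosome fraction and 19.1 times in the homogenate. The full-length form made up 5.92% of Ntrk3 counts in the synaptosome fraction (4.58 to 7.51) and 3.90% in the homogenate (3.01 to 4.96).

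The odds of truncated over full-length Ntrk3 were smaller by 1.55-fold in the synaptosome fraction (1.09 to 2.22), a log2 value of -0.63. Those of Ntrk2 had a log2 value of 0.55. Both are within 2-fold, and 68.1% of other genes with 2 forms differed by at least as much as Ntrk3. The difference between the receptors was not tested, since no replicate is at hand. Levels of the forms, and so their shares and ratios within a library, also depend on where the gene models end. The files' full-length models stop 4003 bases (Ntrk2) and 16155 bases (Ntrk3) short of the GENCODE M21 end, and reads past the files' end could not be counted. The files' truncated Ntrk2 model runs 3911 bases past the GENCODE end.

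**Figure D4:**
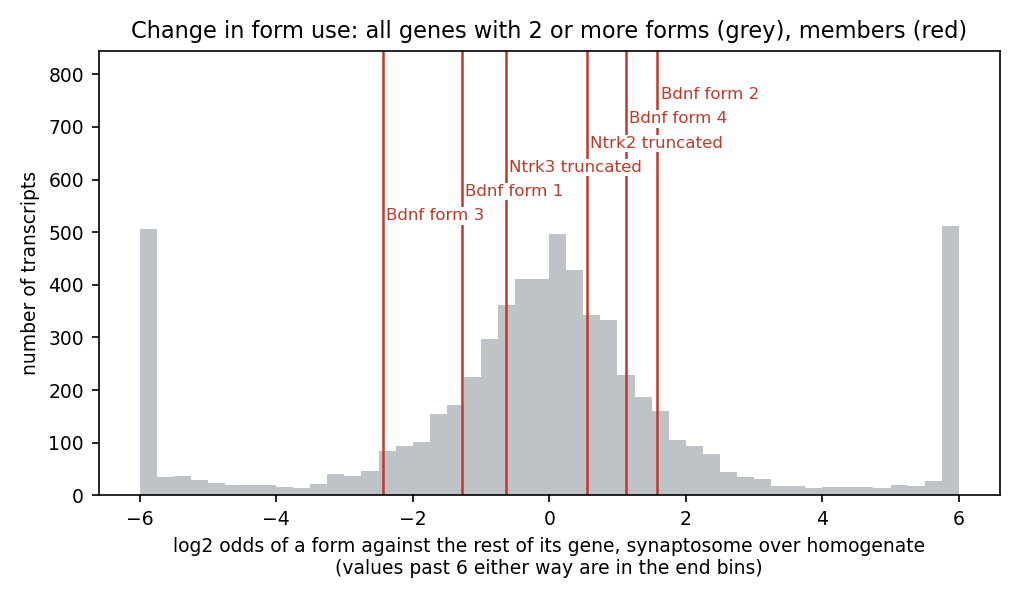
Log2 odds of a form against the rest of its gene, synaptosome over homogenate, for 6430 transcripts (grey bars, number of transcripts per bin of 0.25) and for the members (red lines; in a gene with 2 forms the other form has the opposite value). The Ntrk2 and Ntrk3 lines lie inside 2-fold, at 0.55 and -0.63, and the 4 Bdnf lines lie between -2.44 and 1.59, all within the grey range.

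Ngfr, the p75 receptor, had 54 counts in the synaptosome fraction and 57 in the homogenate in its single form (chromosome 11, minus strand, 95568821 to 95587698). Its log2 ratio of 0.56 had an interval of 0.00 to 1.13 and became 0.07 under library totals, so no direction could be told at this depth. Sort1 (sortilin, chromosome 3, plus strand, 108284132 to 108361511) had 12682 counts in the synaptosome fraction and 7355 in the homogenate. With 1097 TMM-scaled CPM in the synaptosome fraction and 408 in the homogenate it was 2.69-fold higher (2.62 to 2.77), and 94.65% of genes tested had a lower ratio. Under library totals its log2 ratio was 0.94, just inside 2-fold. The p75 co-receptor for precursors was thus more abundant than p75 itself, at 320 against 2.76 TPM in the synaptosome fraction.

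The other genes of the pathway were taken by role from lists, 120 genes in all, of which 115 could be tested. Of these 21 were at least 2-fold higher and 1 was lower, with a median log2 ratio of 0.20; among all genes tested the shares were 12.9% and 8.96% and the median -0.01. Under library totals the count was 9 higher and 21 lower, where 641 of all 14113 genes tested were higher and 3591 lower. That scaling moved every gene by the same amount. The counts of the list thus rest on the scaling, while its place among all genes does not.

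Among the sortilin family, all 4 relatives of Sort1 were at least 2-fold higher, where 12.9% of all genes tested were. Sorl1, a sorting receptor of the endosome, had 5600 counts in the synaptosome fraction and 2039 in the homogenate and was 4.29-fold higher (4.08 to 4.51). Sorcs2, which also binds p75 and precursors, was 4.08-fold higher, Sorcs3 2.94-fold and Sorcs1 2.36-fold higher (2.16 to 2.59). Under library totals Sorcs1 had a log2 ratio of 0.75, inside 2-fold, and the other 3 stayed past 2-fold, where 641 of all 14113 genes tested were higher.

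The next 2 lists are to be read against the 12.9% of all genes tested that were higher and the 8.96% that were lower. Among 15 tested genes of precursor cleavage and release, 6 were higher and 0 lower (median 0.47). Cpe, carboxypeptidase E of dense-core vesicles, was the most abundant and the highest, with 129298 counts in the synaptosome fraction and 48362 in the homogenate, 4.17-fold higher (4.13 to 4.22). Cadps, a priming factor for dense-core vesicles, had the lowest log2 ratio of the list, -0.97 (-1.05 to -0.89). Under library totals 2 genes of this list were higher and 2, Cadps among them, were lower. Of 25 Trk adaptors 5 were higher and 0 lower (median 0.26). Shc3, a neuronal adaptor, was 5.26-fold higher (4.41 to 6.30), Sirpa, the most abundant, had a log2 ratio of 0.82 and Dok5 one of -0.71. Under library totals 1 adaptor, Shc3, was higher and 2, Dok5 among them, were lower. With that scaling 641 of all 14113 genes tested were higher and 3591 lower.

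Downstream branches held 0 to 3 genes each past 2-fold under TMM, where 12.9% of all genes tested were higher and 8.96% lower. With 15 to 18 genes a list, such counts are too small to set a branch apart from those shares. Under library totals 641 of the 14113 genes tested were higher and 3591 lower. Of 18 Ras-MAPK genes 0 were higher and 0 lower (median -0.20); Nras had a log2 ratio of 0.87 and Rps6ka3 one of -0.79, but under library totals 4 genes of this branch, Rps6ka3 among them, were lower. Of 18 PI3K-Akt genes 3 were higher and 0 lower (median 0.17); Akt2 was 2.90-fold higher (2.72 to 3.10), Gsk3a, the most abundant, had a log2 ratio of 0.20 and Rps6kb1 one of -0.62. Under library totals 1 PI3K-Akt gene, Akt2, was higher and 2, Rps6kb1 among them, were lower. Of 18 p75 partners 0 were higher and 1 was lower (median 0.20): Bex1, which binds p75, was 2.22-fold lower. Lingo1, a p75 co-receptor, had a log2 ratio of 0.96, and Ywhae, the most abundant, one of 0.24. Under library totals 6 p75 partners were lower. Of 15 transport and endosome genes 2 were higher and 0 lower (median -0.06). These were the kinesins Kif5b at 3.93-fold and Kif1a at 3.03-fold, while Crmp1 had a log2 ratio of -0.90. Under library totals both kinesins were still higher, and 4 genes of the list, Crmp1 among them, were lower.

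**Figure D5:**
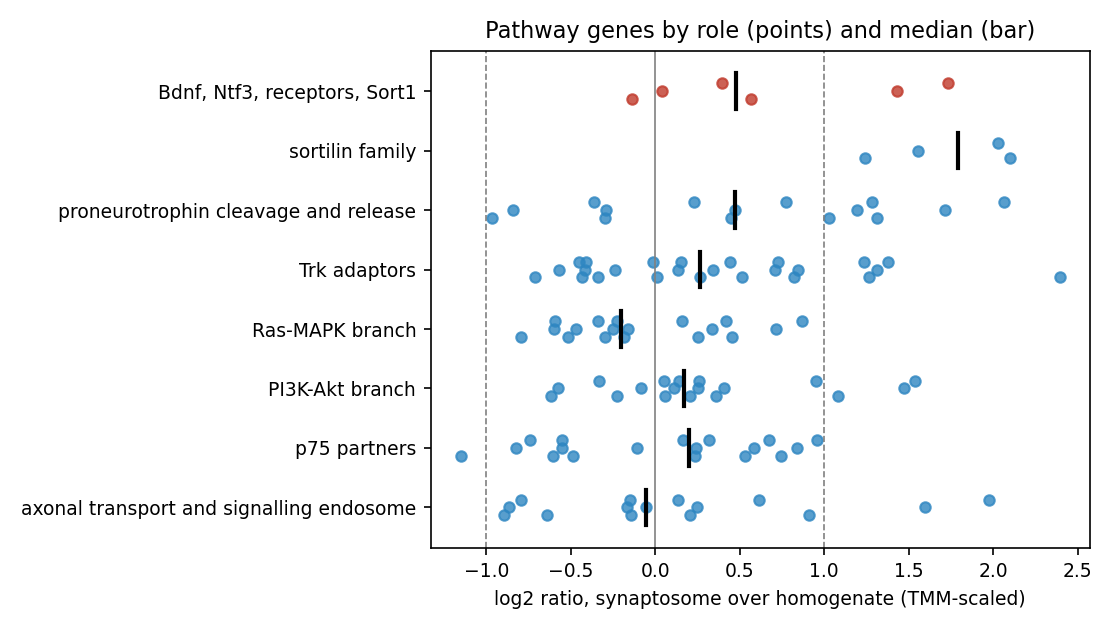
Log2 ratio, synaptosome over homogenate, of the 6 genes (top row, red) and of 113 other pathway genes in the 7 roles with more than 1 gene tested (blue points), with each row's median as a bar; dashed lines mark 2-fold. With this scaling all 4 sortilin relatives lie past 2-fold, and no Ras-MAPK gene does; under library totals 3 relatives are still past it and 4 Ras-MAPK genes are lower.

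By nearest log2 ratio among genes within 2-fold of its mean CPM, the genes most like Ntrk2 were Psd (log2 ratio 1.73), Ncan (1.73) and Slc6a11 (1.73), out of 257. Among those most like Sort1 (1.43), out of 372, were Snph (1.43) and Ttyh1 (1.43). With only 2 libraries this likeness is a single ratio.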

How the data were processed

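RNA was measured in 1 synaptosome library and 1 homogenate library of mouse brain, made with a stranded mRNA kit and 100-base reads, per the labels' protocols. Build mm10 is named in the submitters' processing notes, which also list edgeR 3.0.6, RSEM 1.2.5, TopHat 1.3.3 and FastQC; what each was used for is, in the sources used here, not given. The authors deposited expected counts per transcript, of which 67.88% in the synaptosome fraction and 61.40% in the homogenate were whole. TPM, with a fixed sum per library, were also deposited. The authors also deposited a signal per gene, which was the summed count times 1.25 in the synaptosome fraction and 0.798 in the homogenate for over 99% of 11636 genes within 0.5%.

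Genes needed a mean of 1 CPM and transcripts 0.1 CPM. Expected counts were summed per gene and rounded, giving totals of 13709539 for the synaptosome fraction and 15210857 for the homogenate. Scaling used TMM in edgeR 4.0.16 under R 4.3.3 (factors 0.843 and 1.19). Ratios have exact 95% Clopper-Pearson intervals; odds have log-odds intervals with 0.5 added to each cell. A gene at 0 in 1 library was set to 3 counts there. Odds were taken where a form and the rest of its gene each had at least 20 counts. Truncated and full-length forms were told by accession and GENCODE reading frame. Calculations used Python 3.11.15, numpy 2.4.6, scipy 1.17.1 and pandas 2.3.3, and were tested on simulated data. PCR copies are not independent molecules, so intervals may be too narrow. Alternatives were library totals, DESeq2 1.42.0 size factors, TPM, the deposited signal, other filters, a lower fold and, chosen after seeing the data, posterior counts. The 6 genes, the pathway lists and the markers were chosen with earlier results of these data known. In each pathway role the most abundant, highest and lowest genes were named, and for Ntrk2 and Sort1 the 3 genes nearest in log2 ratio; some genes that this rule takes are not reported here. Hras was not analysed here, and Plg, Mmp3, Ntf5 and Sytl1 were under the CPM minimum.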

Additional observations from a re-analysis of the deposited data

How the results depend on the processing

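Scaling decided most counts. Against 1815 genes higher and 1264 lower, library totals gave 641 and 3591, TPM gave 578 and 3885, and a 1.5-fold rule gave 3399 and 2929; a minimum of 10 CPM left 552 lower. Of the 6 members, 1 (Ntrk2) was higher under library totals and 1 with TPM, in place of 2. Of member transcripts, 2 were higher and 2 lower under library totals and with TPM, in place of 5 and 1, and 2 were lower by a 1.5-fold rule. The share over all 20853 transcripts was taken only under TMM with the 2-fold rule (15.5% higher and 13.4% lower). The member transcript counts of the alternatives thus have no share to be read against. Of the pathway genes, in place of 21 higher and 1 lower, library totals gave 9 and 21, TPM 9 and 23, and a 1.5-fold rule 36 and 15. DESeq2 size factors, unrounded counts and the authors' deposited signal, where it was run, kept every count within 1.5 times. These settings nearly repeat the main one: the log2 shift between libraries was 0.643 under TMM and 0.670 with DESeq2 size factors. Unrounded counts and the deposited signal hold the same counts at the same or nearly the same scaling. They are therefore no separate check of the TMM scaling. A minimum of 100 counts left 1952 of 4390 transcripts past 2-fold in odds, in place of 3276 of 6430, by testing fewer. Posterior counts gave 2511 of 6430. The odds of truncated over full-length Ntrk2 and Ntrk3 moved by less than their intervals under every alternative run. Most of these alternatives could hardly move them, since scaling and length cancel in the odds and each class had 1 form. Other ends of the gene models and another division of reads from the start were not tried, so stability to those is not known. Counts of 20 to 63 in at least 1 library limit what can be told. They were found for Ngfr, Ntf3, Bdnf forms 1, 2 and 3 and full-length Ntrk3. No paired analysis was possible because each fraction has 1 library.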

Other observations

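Estimates of form use were uneven across the whole table. Of 6430 transcripts whose odds were tested, 894 (13.9%) were listed at 0 in 1 of the 2 libraries although both they and the rest of their gene had at least 20 counts in sum, and 954 (14.8%) had odds that differed by at least 64-fold. None of the 8 member forms tested was among them. The median of the absolute log2 odds over the 1569 other genes with 2 forms was 1.09, above the 0.55 of Ntrk2 and the 0.63 of Ntrk3.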
